A study of Rattus norvegicus with 48 samples.

Results

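Hdac4, Gadd45a and Cdkn1a are genes of the muscle response to disuse, and their rows were read from the gene count table of an RNAseq experiment on rat hindlimb muscle. They are 3 of the 31998 genes in the table, listed there as ENSRNOG00000020372 (Hdac4), ENSRNOG00000005615 (Gadd45a) and ENSRNOG00000000521 (Cdkn1a), and all 3 passed the low-count filter that left 16960 genes for testing. Plantaris and soleus were taken from 24 female rats aged 14 months, 12 from each of 2 lines selectively bred from heterogeneous stock, in generation 19, for a low (LRT) or a high (HRT) response to treadmill training. In each line 6 rats wore a cast on a single hindlimb for 3 d (hindlimb immobilization, HI), and 6 other rats had no cast (CTRL). That gave 48 libraries in 8 groups of 6. All rats had been through the training programme, and all were anaesthetized and injected with puromycin before the muscles were removed. The foot was cast in plantar-flexion, so both muscles, which extend the ankle, were held short. Whole muscle was sequenced, so a change in the number of cells of a type and a change in RNA per cell cannot be told apart.

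When a muscle fibre is no longer driven by its nerve, a small set of regulators is known to be switched on. HDAC4 is a class IIa histone deacetylase that enters the nuclei of denervated or inactive fibres and represses repressors of myogenin, which in turn drives genes of the neuromuscular junction and ubiquitin ligases. GADD45A is a small stress-inducible nuclear protein that activates the kinase MAP3K4 and remodels fibre nuclei in atrophy, and Gadd45a is known to lie downstream of HDAC4 and of the stress factor ATF4. CDKN1A, also called p21, blocks cyclin-dependent kinases, is the classic target of p53, and is known to rise with GADD45A in inactive and aged muscle.

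The promoters are shown because the members share regulators in the literature, and a reader can see which known motifs their starts hold. Each window runs from 250 bases before to 50 bases after 1 start of transcription per gene in RefSeq (rat build GRCr8), matched by symbol, and 3 of 3 members matched. For Hdac4 and Cdkn1a the start lies inside the gene's span, which ends at position 100200994 for Hdac4 on the minus strand and begins at 7150820 for Cdkn1a, so other starts exist whose windows were not searched. They are chr9:100197588-100197887 on the minus strand for Hdac4, chr4:97486750-97487049 on the minus strand for Gadd45a and chr20:7150682-7150981 on the plus strand for Cdkn1a. The counts were made on the older build Rnor_6.0. Capitals mark the E-box CANNTG, bound by myogenin and its relatives, the GC box GGGCGG, and the p53 half-site RRRCWWGYYY. Each was looked for on both strands. In these patterns N is any base, R is A or G, W is A or T, and Y is C or T.
Hdac4: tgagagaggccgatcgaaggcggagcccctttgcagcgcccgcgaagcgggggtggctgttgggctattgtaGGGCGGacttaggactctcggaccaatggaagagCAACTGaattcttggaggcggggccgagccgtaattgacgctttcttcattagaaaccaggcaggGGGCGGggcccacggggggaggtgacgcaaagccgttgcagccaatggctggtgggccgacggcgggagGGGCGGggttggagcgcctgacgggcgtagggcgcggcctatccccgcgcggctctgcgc
Gadd45a: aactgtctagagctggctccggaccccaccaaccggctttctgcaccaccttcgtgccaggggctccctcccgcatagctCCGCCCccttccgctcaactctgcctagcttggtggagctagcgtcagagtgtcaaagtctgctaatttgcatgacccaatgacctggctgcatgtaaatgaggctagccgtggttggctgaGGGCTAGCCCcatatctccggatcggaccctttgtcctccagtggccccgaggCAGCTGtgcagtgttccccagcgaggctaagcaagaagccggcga
Cdkn1a: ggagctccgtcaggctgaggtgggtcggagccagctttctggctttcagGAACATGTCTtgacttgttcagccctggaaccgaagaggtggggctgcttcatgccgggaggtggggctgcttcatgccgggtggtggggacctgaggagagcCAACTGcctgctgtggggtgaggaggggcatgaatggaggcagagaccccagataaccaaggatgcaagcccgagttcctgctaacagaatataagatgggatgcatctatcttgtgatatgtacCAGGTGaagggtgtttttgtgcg

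The E-box was in all 3 windows, and 72.1% of the 33469 RefSeq windows of this length hold it. A p53 half-site was in the windows of Cdkn1a (at -201 from the start) and Gadd45a (at -48) and not in that of Hdac4, against 7.98% of all windows. The Hdac4 window held 3 GC boxes and that of Gadd45a held 1, against 33.1% of all windows with at least 1. No member's window held the letters of a CRE (TGACGTCA), an AP-1 site (TGANTCA), an ATF4-C/EBP composite site (TGATGNAA), a MEF2 site, a FoxO site (GTAAACA) or a TATA box (TATAAA). Those letters occur in 1.83%, 7.33%, 3.98%, 3.84%, 3.78% and 14.2% of all windows. The GC content was 67.0% in Hdac4, 60.3% in Gadd45a and 56.7% in Cdkn1a, and the median of all windows was 51.7%.

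The libraries held 26821698 to 36373621 estimated counts, and the least of any member in a library was 120 counts, for Gadd45a. RNA integrity numbers (RIN) had group medians of 8.0 to 8.5. Levels are CPM, the counts divided by the library size in megacounts after its scaling by TMM, a normalization for RNA composition. Of the fixed fast-fibre markers 5 of 11 could be matched to a row, with a summed CTRL level of 13100 to 22779 CPM in plantaris and 746.4 to 2394.7 CPM in soleus. For slow-fibre markers 2 of 10 could be matched, at 48.6 to 93.2 CPM in plantaris and 397.2 to 583.3 CPM in soleus, so both sums followed the muscle labels. Of the 2 slow-fibre markers this holds for Casq2, while Pln had mean CTRL levels of 25.5 and 19.6 CPM in LRT and HRT plantaris and 20.7 and 16.7 CPM in soleus. The myosin heavy chain genes were not matched. With HI the median fast-fibre sum in plantaris went from 20914 to 10887 CPM in LRT and from 15041 to 11928 CPM in HRT, and the groups overlapped in HRT only. The mean of each of the 5 markers was lower with HI in plantaris but for Atp2a1 in HRT, which was at 2125 CPM in CTRL and 2381 CPM in HI. The median slow-fibre sum in soleus went from 485.7 to 204.3 CPM in LRT and from 495.0 to 367.5 CPM in HRT, with overlap in both lines. Pln went the other way in soleus, from a mean of 20.7 to 25.9 CPM in LRT and from 16.7 to 37.2 CPM in HRT. The median sum of the 6 red blood cell markers went from 296.9 to 1156.5 CPM with HI in HRT soleus, where 4 of 6 HI libraries were above the highest CTRL library (611.4 CPM) and 1 was at 10598.4 CPM. It went from 677.5 to 948.9 CPM in LRT soleus, from 322.0 to 399.8 CPM in HRT plantaris and from 374.4 to 298.7 CPM in LRT plantaris. The 2 of 5 endothelial markers matched summed to 8.1 to 27.9 CPM, and they moved in opposite directions with HI in all 4 comparisons, in HRT soleus from a mean of 5.14 to 11.1 CPM for Clec1a and from 10.8 to 6.76 CPM for Bcl6b. Only markers with a symbol in the study's tables of differentially expressed genes could be matched, here and below. Those tables were picked on these samples, so shifts of the markers with HI are no independent evidence of a direction. The part of these shifts in the results below was not tested.

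Hdac4 rose with immobilization in both muscles of both lines, by 4.06- to 7.09-fold. In LRT plantaris the level ran from 17.5 to 24.7 CPM (median 23.2) in CTRL and from 79.2 to 244 CPM (median 150.2) in HI. In HRT plantaris it ran from 17.1 to 28.9 CPM (median 23.6) in CTRL and from 31.2 to 226 CPM (median 95.1) in HI. In both lines each HI value lay above each CTRL value, though in HRT the lowest HI rat, number 6, was only 1.32 times the CTRL median. In LRT soleus the range was 11.9 to 20.5 CPM (median 16.9) in CTRL and 25.9 to 181 CPM (median 59.3) in HI, again with no overlap. In HRT soleus it was 13.9 to 30.8 CPM (median 15.6) in CTRL and 27.01 to 124 CPM (median 63.6) in HI. There 5 of 6 HI values were above the highest CTRL value, which was that of rat 1, at 30.8 CPM, while the other CTRL values reached 16.9 CPM.

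**Figure D1:**
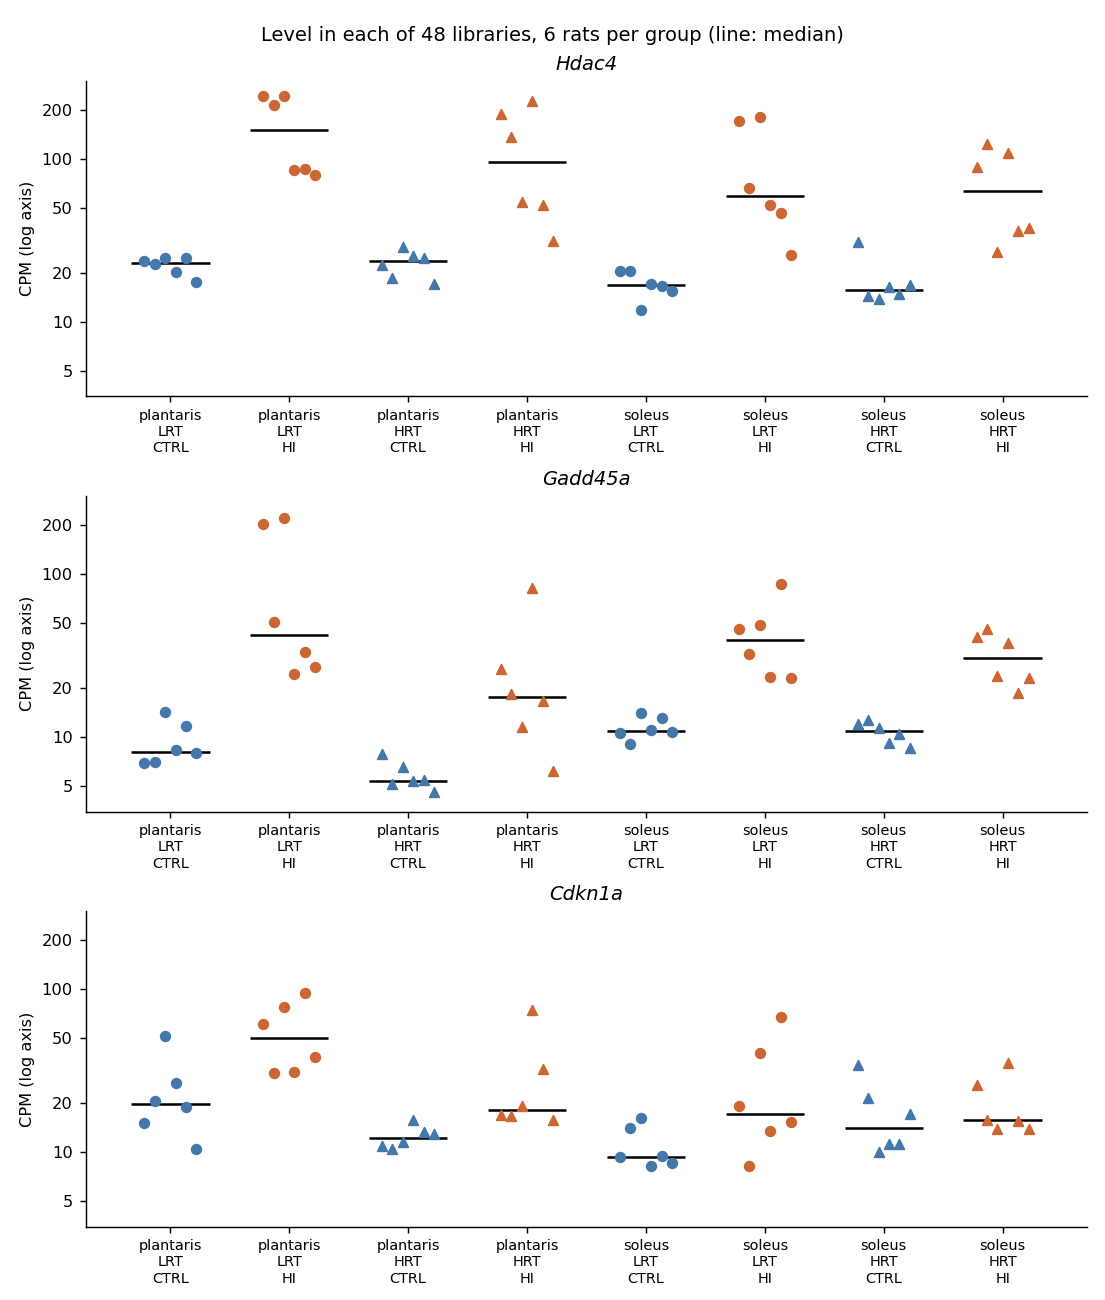
Level of Hdac4, Gadd45a and Cdkn1a (CPM, log axis) in each of the 48 libraries by muscle, line and treatment. Each point is 1 rat (circles LRT, triangles HRT, blue CTRL, orange HI) and bars are medians of 6. HI values of Hdac4 and Gadd45a spread far more than CTRL values, and those of Cdkn1a overlap CTRL in 3 of the 4 comparisons.

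Gadd45a rose in the same 4 comparisons, by 3.18- to 9.79-fold. In LRT plantaris it ran from 6.97 to 14.3 CPM (median 8.16) in CTRL and from 24.5 to 221 CPM (median 42.2) in HI. HI rats 1 and 3 of this group, at 201 and 221 CPM, stood far above the other 4, which reached 51.0 CPM. In HRT plantaris the range was 4.63 to 7.89 CPM (median 5.42) in CTRL and 6.2 to 82.2 CPM (median 17.6) in HI. Rat 4 gave the 82.2 CPM, the next HI rat was at 26.3 CPM, and rat 6, at 6.2 CPM, lay inside the CTRL range. In LRT soleus it ran from 9.08 to 14.1 CPM (median 10.95) in CTRL and from 22.95 to 87.0 CPM (median 39.1) in HI. In HRT soleus it ran from 8.60 to 12.7 CPM (median 10.9) in CTRL and from 18.6 to 46.2 CPM (median 30.6) in HI. HI and CTRL did not overlap in either soleus comparison.

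Cdkn1a moved least, and in 3 of the 4 CTRL groups its rats differed more among themselves than for the other members, with a coefficient of variation of 30.3 to 61.0%, against 16.0% in HRT plantaris. In LRT plantaris it ran from 10.5 to 51.6 CPM (median 19.9) in CTRL and from 30.6 to 94.0 CPM (median 50.0) in HI. The highest CTRL rat, number 3, lay above 3 of the 6 HI rats. In HRT plantaris CTRL values were 10.4 to 15.9 CPM (median 12.3) and HI values 15.9 to 74.7 CPM (median 18.1). The groups did not overlap, but by 15.88 against 15.86 CPM at the nearest pair. In LRT soleus the range was 8.27 to 16.3 CPM (median 9.41) in CTRL and 8.27 to 67.6 CPM (median 17.2) in HI, with 3 HI rats inside the CTRL range. In HRT soleus it was 10.1 to 34.4 CPM (median 14.2) in CTRL and 13.8 to 35.3 CPM (median 15.7) in HI, and only 1 HI rat exceeded the highest CTRL rat.

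In the order of group means, the 4 CTRL groups of Hdac4 (17.0 to 22.8 CPM) and of Gadd45a (5.86 to 11.5 CPM) came below the 4 HI groups. HI means of Hdac4 rose from 70.6 CPM in HRT soleus through 90.4 CPM in LRT soleus and 115 CPM in HRT plantaris to 159 CPM in LRT plantaris. Those of Gadd45a rose from 26.9 CPM in HRT plantaris through 31.7 CPM in HRT soleus and 43.4 CPM in LRT soleus to 93.0 CPM in LRT plantaris. For Cdkn1a LRT soleus CTRL was lowest (10.99 CPM) and LRT plantaris HI highest (55.6 CPM), and LRT plantaris CTRL (23.9 CPM) stood above HRT soleus HI (20.04 CPM). The ranges of each pair of neighbouring groups overlapped for all 3 members. HI groups of Hdac4 and Gadd45a also spread more than their CTRL groups. The SD of Hdac4 in LRT plantaris was 2.83 CPM around a CTRL mean of 22.2 and 83.1 CPM around an HI mean of 159 (n = 6 each), and the highest HI rat was 3.09 times the lowest. For Gadd45a in HRT plantaris this ratio was 13.25 in HI and 1.70 in CTRL.

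Each HI group was tested against its CTRL group by edgeR's quasi-likelihood test with RIN as a covariate, and p was adjusted over all genes tested (Benjamini-Hochberg). Hdac4 had a log2 fold change of 2.83 ± 0.44 (SE, adjusted p = 1.5e-05) in LRT plantaris, 2.29 ± 0.45 (adjusted p = 0.0012) in HRT plantaris, 2.44 ± 0.44 (adjusted p = 0.00031) in LRT soleus and 2.02 ± 0.45 (adjusted p = 0.002) in HRT soleus. Gadd45a had 3.29 ± 0.48 (adjusted p = 6.3e-06), 2.07 ± 0.49 (adjusted p = 0.0063), 1.96 ± 0.46 (adjusted p = 0.0037) and 1.67 ± 0.47 (adjusted p = 0.013) in the same order. These 8 calls held in 12 fits that each left out the rats of 1 number and treatment, 1 from each line with both muscles, and under the 10 other settings tried. Without the HI rats numbered 4, however, the HRT plantaris value of Gadd45a fell to 1.34 (adjusted p = 0.046).

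Cdkn1a passed the test in LRT only. Its log2 fold change was 1.14 ± 0.41 (adjusted p = 0.033) in LRT plantaris and 1.33 ± 0.42 (adjusted p = 0.026) in LRT soleus, against 1.09 ± 0.42 (adjusted p = 0.088) in HRT plantaris and 0.40 ± 0.43 (adjusted p = 0.57) in HRT soleus. A pass in LRT and not in HRT is no difference between the lines, which was tested itself and did not pass. Both LRT calls were unstable. In plantaris the call was lost without the HI rats numbered 1, 3 or 5 and without the CTRL rats numbered 1, 2, 4, 5 or 6 (log2 fold change 0.91 to 1.16, adjusted p 0.053 to 0.12). In soleus it was lost without the HI rats 3 or 5 or the CTRL rats 4, 5 or 6 (0.89 to 1.32, adjusted p 0.052 to 0.13). It was also lost in limma-voom (1.06, adjusted p = 0.079), also with the rat as a correlated block (1.07, adjusted p = 0.057). In HRT plantaris the call was made without RIN (1.23, adjusted p = 0.047) and with library totals in place of TMM (1.27, adjusted p = 0.034), where the median over all genes was 0.17 rather than 0.02.

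Counted by the threshold for a DEG (adjusted p under 0.05 and log2 fold change over 1), 3 of 3 members were higher in LRT plantaris, where 2.75% of all genes tested were. In LRT soleus 3 of 3 were higher against 1.42% of all genes. In HRT 2 of 3 were higher in plantaris against 0.908% and 2 of 3 in soleus against 1.46%. Members with all 6 HI values above all 6 CTRL values numbered 2 of 3 in LRT plantaris (4.69% of all genes), 2 in HRT plantaris (3.27%), 2 in LRT soleus (1.79%) and 1 in HRT soleus (2.25%). The members were picked with earlier results of these data in view, so these counts describe them and are no test of the choice.

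**Figure D2:**
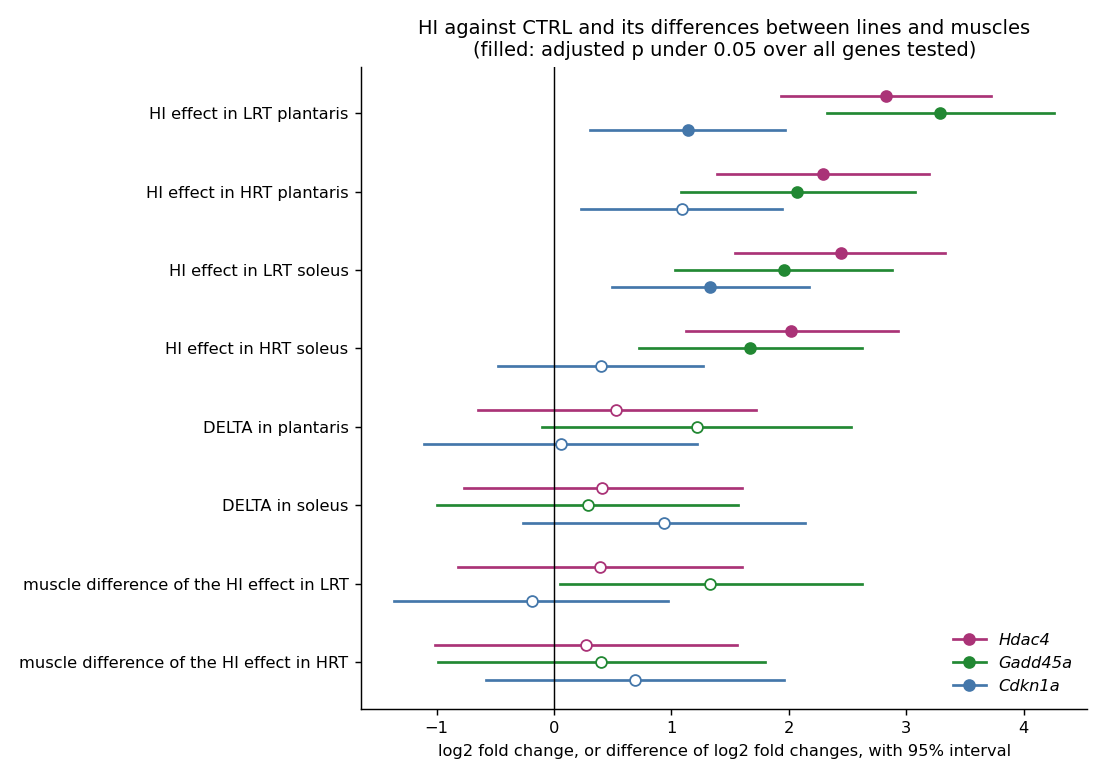
Log2 fold change of HI against CTRL for Hdac4, Gadd45a and Cdkn1a in each muscle and line, then its difference between lines (DELTA, LRT minus HRT) and between muscles (plantaris minus soleus), each with its 95% interval. Filled points have an adjusted p under 0.05 by edgeR. The 10 filled points are all among the HI effects, and no difference between lines or muscles is filled.

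The study set out to compare the lines, and the difference of HI effects, LRT minus HRT, is called DELTA. No member passed in either muscle. In plantaris DELTA was 0.53 (95% interval -0.65 to 1.72, adjusted p = 0.91) for Hdac4, 1.22 (-0.10 to 2.53, adjusted p = 0.81) for Gadd45a and 0.06 (-1.11 to 1.22, adjusted p = 0.99) for Cdkn1a by edgeR. These values moved when a pair of same-numbered rats, 1 from each line, was left out: without the HI rats numbered 3, Gadd45a was at 0.61 and Hdac4 at 0.22, and without those numbered 4 Gadd45a was at 2.17 (adjusted p = 0.089) and Hdac4 at 1.0 (adjusted p = 0.49). In that comparison 0 genes (0.0%) of 16960 passed, 1060 had an unadjusted p under 0.05, DESeq2 called 0 and limma-voom 1. In soleus DELTA was 0.41 (-0.77 to 1.6, adjusted p = 0.87) for Hdac4, 0.29 (-1.0 to 1.57, adjusted p = 0.93) for Gadd45a and 0.94 (-0.26 to 2.14, adjusted p = 0.64) for Cdkn1a, and 0.0295% of all genes passed. Intervals of this width do not show that the lines respond alike.

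Between muscles the HI effect of Gadd45a in LRT was 1.33 larger in plantaris than in soleus (95% interval 0.05 to 2.62, adjusted p = 0.25 by edgeR). It was 0.84 without the HI rats numbered 3, 0.85 in limma-voom and 0.82 with the rat as a correlated block. The same difference was 0.39 (-0.82 to 1.6) for Hdac4 and -0.19 (-1.36 to 0.97) for Cdkn1a, and 2.18% of all genes passed. In HRT it was 0.27 (-1.01 to 1.56) for Hdac4, 0.40 (-0.99 to 1.80) for Gadd45a and 0.69 (-0.58 to 1.96) for Cdkn1a, and 0.0943% of all genes passed. None of these members passed, in edgeR or with the rat as a correlated block. The edgeR fit has no term for the rat, so its intervals and p-values here leave out the pairing of the muscles.

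The members had no called difference between uncast groups. Between lines in CTRL, LRT minus HRT, Cdkn1a in plantaris was 0.93 (0.10 to 1.77, adjusted p = 0.39), with Gadd45a at 0.66 (adjusted p = 0.66) and Hdac4 at -0.04 (adjusted p = 0.99), where edgeR called 0.525% of all genes. Without the CTRL rats numbered 3 the Cdkn1a value was 0.49 (adjusted p = 0.84). In soleus the values were -0.57 for Cdkn1a, 0.16 for Gadd45a and -0.06 for Hdac4, where it called 1.45%. Between muscles in CTRL, plantaris minus soleus, 32.6% of all genes were called in LRT and 38.8% in HRT, and no member was. The nearest were Cdkn1a in LRT at 0.98 (0.12 to 1.84, adjusted p = 0.073) and Gadd45a in HRT at -0.91 (-1.85 to 0.03, adjusted p = 0.12). Hdac4 was 0.35 in LRT and 0.34 in HRT. The Cdkn1a value in LRT was called without RIN (1.12, adjusted p = 0.034) and without the HI rats numbered 4 (0.94, adjusted p = 0.047) or 5 (1.05, adjusted p = 0.04).

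The rats of a group did not respond evenly, and in plantaris HI the uneven response took the form of clusters. After removal of group means, the 12 Hdac4 values left a gap of 1.30 on the log2 scale. On its upper side were LRT rats 1, 2 and 3 and HRT rats 1, 2 and 4, at 136 to 244 CPM, and on its lower side LRT rats 4, 5 and 6 and HRT rats 3, 5 and 6, at 31.2 to 86.4 CPM. Gadd45a left a gap of 1.26, with LRT rats 1 and 3 and HRT rat 4 above it and 9 rats below. Those 3 rats had Hdac4 levels of 244, 244 and 226 CPM, the 2 highest of LRT plantaris HI and the highest of HRT plantaris HI. HRT rat 4 was also highest in Cdkn1a (74.7 CPM), while in LRT the highest Cdkn1a was that of rat 5 (94.0 CPM), whose Gadd45a was 33.5 CPM. HRT rat 6 was lowest of its group in all 3 members, at 31.2 CPM for Hdac4, 6.2 for Gadd45a and 15.9 for Cdkn1a. Its RIN was 7.9, against 8.4 to 8.5 in the other 5 rats of the group, and the part of RNA quality in these values was not tested.

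**Figure D3:**
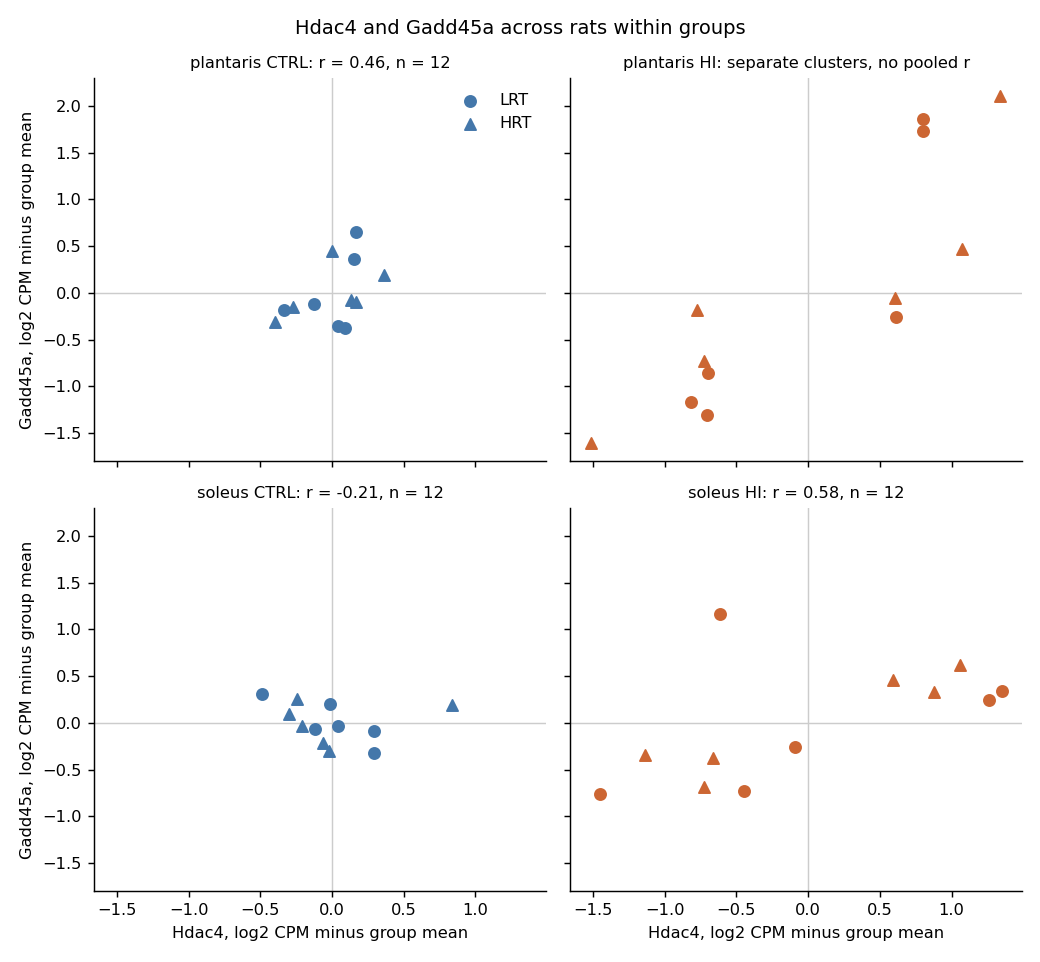
Hdac4 (x axis) against Gadd45a (y axis), both as log2 CPM minus the group mean, for the 12 rats of each muscle and treatment (circles LRT, triangles HRT). In plantaris HI the points fall into separate clusters and no coefficient is given for them together, and in soleus HI r is 0.58 (n = 12).

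Because of these clusters no coefficient of Hdac4 or Gadd45a with another member, or between muscles, is given over all plantaris HI rats, and relations were taken within clusters of at least 6 rats. Of 38 relations computed in all, 5 had an unadjusted p under 0.05 by exact permutation within groups and 0 passed Benjamini-Hochberg adjustment over the 38. With Spearman's rho 4 had an unadjusted p under 0.05 and 0 passed. The clusters were cut on the values being related and hold few permutations, so a high p within a cluster is no sign that a relation is absent. Within the 6 plantaris HI rats of the lower Hdac4 cluster, Hdac4 and Gadd45a had r = 0.86 (rho = 0.77) with p = 0.19 by exact permutation. Without the 2 rats farthest from the median it was 0.27, from 4 rats. Here and below these 2 rats were picked on the first-named gene only, or on plantaris between muscles. Extremes of the other value could therefore stay in. In soleus HI, where Hdac4 and Gadd45a formed no clusters, r was 0.58 (p = 0.068) and rho 0.63 (p = 0.036), adjusted to 0.33 and 0.34, and r was 0.59 without the 2 rats farthest from the median. Within lines r was 0.37 in LRT and 0.93 in HRT (6 rats each, exact permutation p = 0.47 and 0.058), and the difference between the lines was not tested. In CTRL r was 0.46 (p = 0.12) in plantaris and -0.21 (p = 0.55) in soleus, with rho of 0.53 (p = 0.067) and -0.45 (p = 0.16). Without the 2 farthest rats the soleus value was -0.70 (exact permutation p = 0.027). Within lines in soleus CTRL r was -0.81 in LRT (exact permutation p = 0.042, adjusted p = 0.32) and 0.20 in HRT (exact permutation p = 0.77).

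Gadd45a and Cdkn1a in soleus HI had r = 0.75 (p = 0.012) and rho = 0.77 (p = 0.0098) over 12 rats, with adjusted p of 0.15 and 0.12. Without the 2 rats farthest from the median it was 0.60, with an exact permutation p of 0.088. Within lines r was 0.83 in LRT and 0.57 in HRT (6 rats each, exact permutation p = 0.042 and 0.3, adjusted p = 0.32 and 0.57), and the difference between the lines was not tested. In CTRL r was 0.49 in plantaris and 0.33 in soleus (p = 0.21 and 0.31), with rho of 0.37 and 0.29 (p = 0.31 and 0.34). Without the 2 farthest rats these coefficients r were 0.09 and 0.07. Within lines r was 0.69 in LRT and -0.41 in HRT in plantaris CTRL, and 0.16 and 0.45 in soleus CTRL. The difference between HI and CTRL was not tested. In soleus HI, LRT rat 5 had the highest value of both genes, 87.0 CPM of Gadd45a and 67.6 CPM of Cdkn1a. Its Hdac4, 46.3 CPM, was the next to lowest of its group. In plantaris HI the 9 rats below the Gadd45a gap had r = 0.08 and rho = 0.02 (p = 0.77 and 1.0, exact permutation). Hdac4 and Cdkn1a had r = 0.32 (p = 0.36) and rho = 0.51 (p = 0.12) in soleus HI. In CTRL their r was 0.36 in plantaris and 0.46 in soleus (p = 0.18 and 0.19), with rho of 0.41 and 0.24 (p = 0.18 and 0.54). Within lines it was 0.58 in LRT and 0.24 in HRT in plantaris CTRL, and -0.35 and 0.80 in soleus CTRL. The 2 soleus values were 0.89 and -0.21 without the 2 farthest rats of each line. In the lower and upper Hdac4 clusters of plantaris HI the coefficients were 0.40 and 0.79, with exact permutation p of 0.53 and 0.28.

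Plantaris and soleus were set side by side by reading the same number as the same rat. The labels do not state this, and 22 of 24 libraries deviated most like the library of the other muscle with their own number. The 2 exceptions were numbers 1 and 2 of HRT CTRL, with correlations of -0.05 and -0.026. They are kept as pairs in the CTRL coefficients below. Cdkn1a in HI had r = 0.76 (p = 0.002) and rho = 0.78 (p = 0.0089) between the muscles over 12 rats, with adjusted p of 0.076 and 0.12. Without the 2 rats farthest from the median it was 0.65 (exact permutation p = 0.07), and with RIN removed it was 0.87 (adjusted p = 0.043), the 1 of 38 that passed in that setting. In CTRL Cdkn1a had r = 0.19 (p = 0.47) and rho = -0.15 (p = 0.66), and r was -0.40 without the 2 farthest rats. Gadd45a in CTRL had r = 0.78 (p = 0.0046) and rho = 0.76 (p = 0.0095), adjusted to 0.087 and 0.12, and without the 2 farthest rats it was 0.67 (exact permutation p = 0.043). In HI the 9 rats below the Gadd45a gap had r = 0.41 and rho = 0.43 (exact permutation p = 0.25 and 0.27). For Hdac4 in HI, the rats ranked 1 to 3 in plantaris were also the rats ranked 1 to 3 in soleus in each line, numbers 1, 2 and 3 in LRT and 1, 2 and 4 in HRT. This likeness between the clusters has no test here. In CTRL Hdac4 had r = -0.09 (p = 0.82) and rho = -0.31 (p = 0.37).

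**Figure D4:**
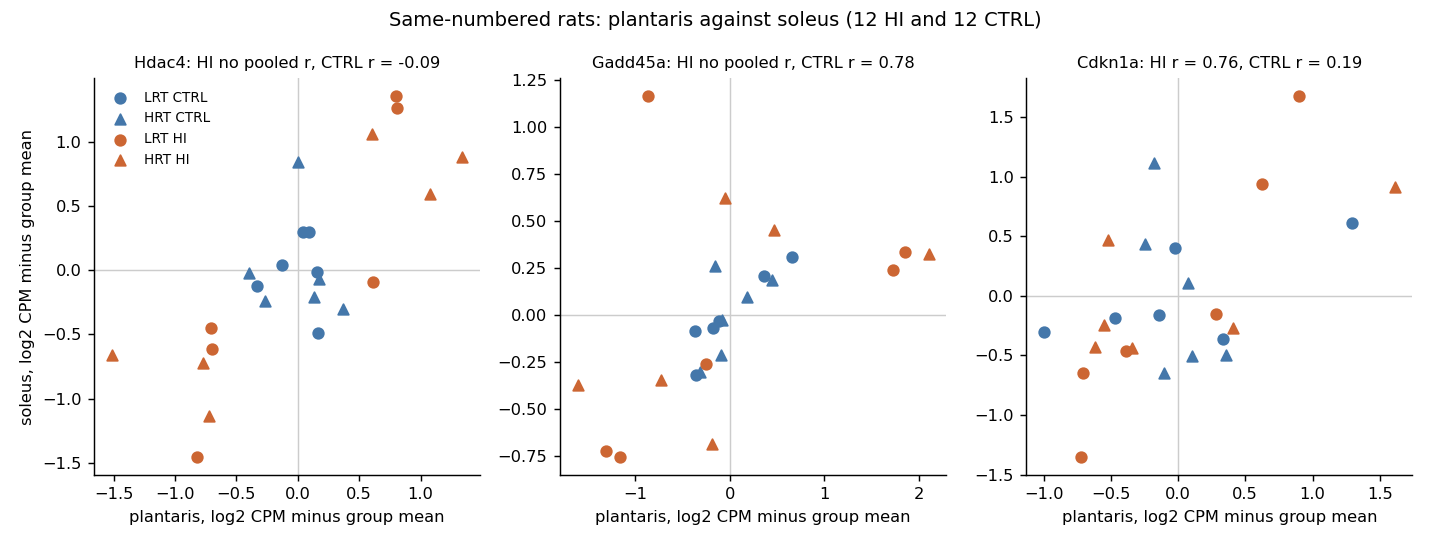
Plantaris (x axis) against soleus (y axis) of same-numbered rats for each member, as log2 CPM minus the group mean (12 HI rats in orange, 12 CTRL rats in blue, circles LRT, triangles HRT). The 6 HI rats on the upper side of the Hdac4 gap in plantaris are those ranked 1 to 3 of their line in soleus, and Cdkn1a in HI has r = 0.76.

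The same plantaris HI libraries stood apart in a gene listed as a macrophage marker. Gpnmb, a lysosomal glycoprotein, was at 3.35 to 6.73 CPM in LRT plantaris CTRL and 12.5 to 162 CPM in HI. Of 7 macrophage markers 2 could be matched, and their summed level was 138 and 163 CPM in LRT plantaris HI rats 1 and 3 and 139 CPM in HRT plantaris HI rat 4, the 3 rats above the Gadd45a gap, against 6.9 to 43.2 CPM in the other 9. These libraries also held the lowest fast-fibre sums of their groups, 5725 and 6328 CPM in LRT and 7079 CPM in HRT. The other marker, Clec7a, a receptor of myeloid cells, stayed between 0.22 and 1.46 CPM in all plantaris groups. In soleus the sum was 8.3 to 31.2 CPM in CTRL and 9.9 to 26.5 CPM in HI. Its median went from 13.1 to 15.9 CPM in LRT soleus and from 15.9 to 22.9 CPM in HRT soleus. Mean Clec7a went from 0.93 to 1.03 CPM in LRT soleus and from 0.73 to 1.85 CPM in HRT soleus, with overlap in both lines. Of 6 fibroblast markers 4 were matched, and the sum had medians of 760 and 915 CPM in LRT and HRT plantaris CTRL against 268 and 351 CPM in HI. In soleus the medians were 738.0 and 978.2 CPM in CTRL and 369.7 and 653.3 CPM in HI. The part of these cells in the levels of Hdac4, Gadd45a and Cdkn1a was not tested.

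Genes around the members were taken from lists, of which only those with a symbol in the study's DEG tables could be matched. Those tables were picked on these samples, so the counts are no independent evidence of a direction. For reading them, the share of all genes that rose at an adjusted p under 0.05 was 15.1% in LRT plantaris, 5.11% in HRT plantaris, 7.36% in LRT soleus and 7.95% in HRT soleus. The share that fell was 13.6%, 5.85%, 6.58% and 8.23%. The relatives of HDAC4 gave 1 gene beside Hdac4, the class IIa deacetylase Hdac9, and it fell by 1.79 (adjusted p = 4.9e-06) in LRT plantaris and by 0.98 (adjusted p = 0.0093) in HRT plantaris by edgeR. Its soleus values were -0.42 and -0.21 (adjusted p = 0.25 and 0.61). Hdac9 thus changed in the direction opposite to Hdac4, from 31.3 to 8.86 CPM in LRT plantaris.

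Of 15 genes of myogenin and the neuromuscular junction 7 were matched. By edgeR 3 rose and 1 fell in LRT plantaris (median log2 fold change 0.38, against 0.01 over all genes), 1 rose and 1 fell in HRT plantaris, none rose and 1 fell in LRT soleus, and 1 rose and 2 fell in HRT soleus. Myog, the myogenin gene, rose by 2.62 (adjusted p = 4.4e-05) in LRT plantaris and was at 1.26 (adjusted p = 0.057) in HRT plantaris. In soleus its values were 0.01 and -0.14 (adjusted p = 0.99 and 0.87), where Hdac4 had risen. The muscles differed in Myog without a cast. Its mean CTRL level was 68.95 and 60.2 CPM in LRT and HRT soleus, against 19.89 and 17.98 CPM in LRT and HRT plantaris. Runx1, a transcription factor induced by denervation, rose by 3.15 (adjusted p = 8.2e-05) and 1.72 (adjusted p = 0.046) in LRT and HRT plantaris, and was at 1.04 and 0.34 in soleus. Musk, the receptor kinase of the junction, rose by 1.11 (adjusted p = 0.041) in LRT plantaris and was at 1.14 (adjusted p = 0.086) in HRT plantaris. Ache, the acetylcholinesterase, fell by 1.91 and 1.39 in LRT and HRT plantaris (adjusted p = 0.00026 and 0.013). The 4 calls in soleus were those of Colq, the collagen tail of acetylcholinesterase, in both lines, and of Myod1 and Myf6, myogenic factors, in HRT, named here after their values were seen. Colq fell by 1.72 and 2.20, Myod1 rose by 1.26 and Myf6 fell by 1.02 (adjusted p = 0.0032, 0.00037, 0.0072 and 0.037).

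**Figure D5:**
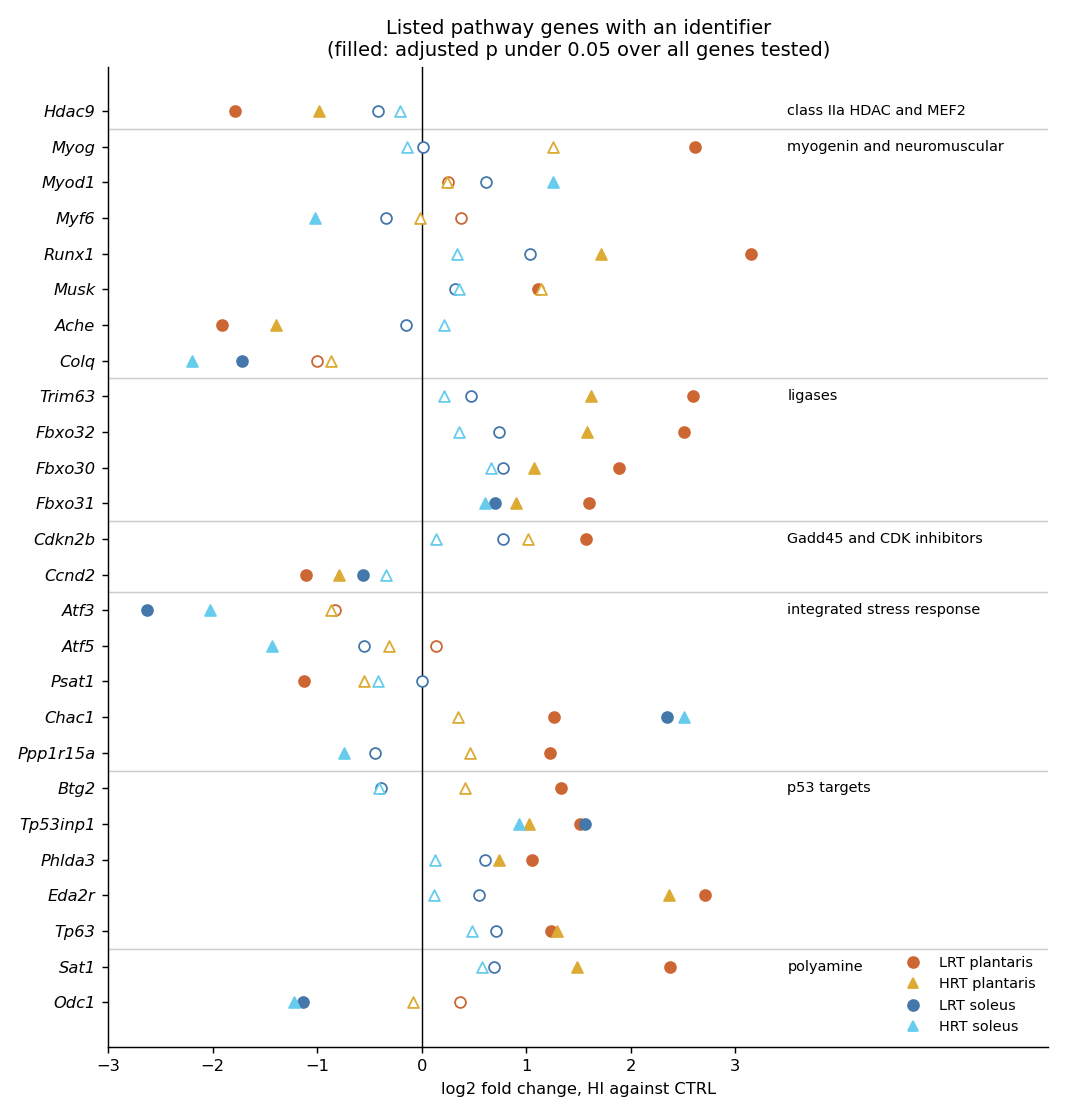
Log2 fold change of HI against CTRL for the listed pathway genes that could be matched, by muscle and line (circles LRT, triangles HRT, warm colours plantaris, blue soleus). Filled points have an adjusted p under 0.05 by edgeR. All 4 ligases are filled in both plantaris comparisons, and Fbxo31 is the ligase filled in soleus.

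Of the 5 ubiquitin ligase genes of the list, 4 were matched and all 4 rose in plantaris of both lines (median 2.20 in LRT and 1.33 in HRT). Trim63 and Fbxo32, the ligases MuRF1 and atrogin-1 of muscle protein breakdown, rose by 2.60 and 2.51 in LRT plantaris and by 1.62 and 1.58 in HRT plantaris. Fbxo30, a ligase set free by loss of BMP signalling, rose by 1.89 and 1.08. Fbxo31, an adaptor for cyclin D1, rose by 1.6 and 0.9 in plantaris and was the ligase called in soleus, where it rose by 0.70 and 0.61 (adjusted p = 0.0078 and 0.021). In soleus Trim63 was at 0.47 and 0.21 and Fbxo32 at 0.74 and 0.36, with adjusted p of 0.13 to 0.74.

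Beside Gadd45a and Cdkn1a, 2 of the other 10 genes of their list were matched. Cdkn2b, a further cyclin-dependent kinase inhibitor, rose by 1.57 (adjusted p = 0.00084) in LRT plantaris and was at 1.02 (adjusted p = 0.076) in HRT plantaris. Ccnd2, the cyclin D2 gene, fell by 1.11, 0.79 and 0.56 in LRT plantaris, HRT plantaris and LRT soleus (adjusted p = 5.5e-05, 0.007 and 0.043). Of 14 p53 targets 5 were matched. All 5 rose in LRT plantaris and 4 of 5 in HRT plantaris (medians 1.33 and 1.03), and Tp53inp1 was the 1 that rose in soleus. Tp53inp1, a stress protein of autophagy, rose by 1.52, 1.03, 1.56 and 0.93 in LRT plantaris, HRT plantaris, LRT soleus and HRT soleus. Eda2r, the ectodysplasin A2 receptor, rose by 2.71 and 2.37 in plantaris and was at 0.55 and 0.12 in soleus. Phlda3 rose by 1.06 and 0.74 in plantaris, and Tp63, a p53 relative, by 1.24 and 1.30.

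Of 11 genes of the integrated stress response 5 were matched, and they did not move together. In LRT plantaris 2 rose and 1 fell, in HRT plantaris none passed, in LRT soleus 1 rose and 1 fell, and in HRT soleus 1 rose and 3 fell. Chac1, a glutathione-degrading enzyme, rose by 1.27 in LRT plantaris, 2.35 in LRT soleus and 2.51 in HRT soleus. Ppp1r15a, also called Gadd34, rose by 1.23 in LRT plantaris and fell by 0.74 in HRT soleus. Atf3 fell by 2.63 and 2.03 in LRT and HRT soleus (adjusted p = 0.00061 and 0.0055), and Psat1, an enzyme of serine synthesis, by 1.13 in LRT plantaris. The remaining call in HRT soleus was Atf5, a relative of ATF4, which fell by 1.43 and is named after its values were seen. Of 6 polyamine genes 2 were matched. Sat1, the catabolic acetyltransferase, rose by 2.38 and 1.49 in LRT and HRT plantaris, and Odc1, the first enzyme of synthesis, fell by 1.14 and 1.22 in LRT and HRT soleus. Map3k4, the partner of GADD45A, was not matched.

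Genes whose pattern was most like that of a member were ranked by Pearson r of log2 CPM over the 48 libraries, among those with a symbol, as a description. For Hdac4 they were AABR07068327.1 (r = 0.98), Dhx37 (0.93), Fam214a (0.92), Gstt2 (0.90) and Fam219a (0.89). The first is annotated as a pseudogene on chromosome 9, the chromosome of Hdac4, and whether it shares reads with Hdac4 was not tested. For Gadd45a they were Fbxo30 (0.90), Runx1 (0.87), Tgif1 (0.86), Kcnn3 (0.86) and Tp53inp1 (0.85). For Cdkn1a the coefficients were lower, with Tmem140 (0.76), Ctsl (0.75), Kctd20 (0.74), Rhbdf2 (0.74) and H6pd (0.74). These values share the treatment and the muscle of the libraries and include the clustered plantaris HI rats, so a few rats can carry them. The order also depends on the group means. With them removed, the first 5 were AABR07068327.1, Dhx37, Ulk1, Ets2 and Ddi2 for Hdac4, Runx1, Kctd20, Myog, Tgif1 and Kcnn3 for Gadd45a, and Runx1, Tmem140, Abhd2, LOC100911615 and Fbxo31 for Cdkn1a.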

How the data were processed

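RNA of plantaris and soleus from 24 rats was sequenced in 48 libraries, grouped by muscle, line and treatment as the labels give them. The authors quantified transcripts with Salmon 0.9.1 against Ensembl release 91 (Rnor_6.0) and summed them per gene with tximport, so the deposited values are estimated counts scaled for length, which were rounded here. The labels and the study's methods name different library kits, so whether the counts used strand is not settled, and reads of a gene and of an antisense partner may not be told apart. No column was left out.

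All 48 libraries were fitted together with edgeR 4.0.16 in R 4.3.3 (filterByExpr, TMM, quasi-likelihood test, 8 groups and RIN as covariate), and p was adjusted over 16960 genes. Depth was 26821698 to 36373621 counts per library. Within a muscle the rats are the replicates, and p-values cover the spread between these rats. The fit held no term for the rat, so the plantaris and soleus of a rat entered as independent libraries. For comparisons between muscles the edgeR p-values and intervals therefore leave out this pairing.

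Coefficients used log2 CPM (prior count 2) with group means removed. The 2 rats left out as farthest from the median were picked on the first-named gene, or on plantaris between muscles. All within-group permutations were enumerated (518400 for 12 rats, 720 for 6 of a group, 36 or 2880 within clusters, two-sided) in place of the random resamples first set. A gap over 1 on the log2 scale between the sorted values of a muscle and treatment was taken as separate clusters. This rule was set after the values were seen, replaced 11 of 42 intended relations by 7 within clusters of at least 6, and left 38.

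Same-numbered plantaris and soleus libraries had a mean correlation of 0.226 in their deviations from group means, and 22 of 24 were highest with their own number, while 2 were not over 0.1, and a number was read as a rat on this basis and because both muscles were taken from each rat. Symbols came from the study's DEG tables, which pair 1149 of 31998 identifiers (3.6%), and those tables also gave the chromosome and gene type of AABR07068327.1. Their fold changes and p-values were not used. The named genes are the members, the matched genes of fixed lists (values for at most 4 of a list, lowest adjusted p in LRT plantaris first, with Colq, Myod1, Myf6 and Atf5 added after their values were seen) and the 5 genes most like each member. Members and lists were chosen with earlier results of these data known. The gene-wise chain was tested on simulated data. Alternatives were DESeq2 1.42.0 size factors or Wald test, library totals, limma-voom (limma 3.58.1) without and with the rat as a block, no RIN, other count filters, each muscle alone, a replicate block, and the rats of each number and treatment left out in turn (1 from each line, both muscles).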

Additional observations from a re-analysis of the deposited data

Results flagged for a closer look

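Within groups of 6, a rat was marked where its gap to the next value as a share of the whole range was over Dixon's 95% critical value. Of 24 sets of 6 values, 3 were marked, and the marks of Gadd45a and Cdkn1a fall in the same library. The marks were made on CPM and not on the log2 scale. A rate of about 1 in 20 by chance holds only for normally distributed values, so the number of marks cannot be set against it. Hdac4 in HRT soleus CTRL was at 30.75 CPM in rat 1, and the other 5 rats were at 13.91 to 16.88 CPM. Without the CTRL rats numbered 1 the HI effect of Hdac4 in HRT soleus was 2.22 (adjusted p = 0.0021). Gadd45a in HRT plantaris HI was at 82.16 CPM in rat 4, and Cdkn1a in the same library was at 74.68 CPM. Without the HI rats numbered 4 the HI effect in HRT plantaris was 1.34 (adjusted p = 0.046) for Gadd45a and 0.60 (adjusted p = 0.38) for Cdkn1a by edgeR. That library also had the highest Hdac4 level of its group, 226.48 CPM.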

How the results depend on the processing

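The HI effects of Hdac4 and Gadd45a kept their direction and their side of the threshold in all 4 comparisons under all settings run, with log2 fold changes of 1.79 to 3.10 for Hdac4 and 1.34 to 3.61 for Gadd45a. The cause of the changes below was not tested. With the rats of each number and treatment left out in turn, 1 from each line, the HI effect of Cdkn1a was 0.91 to 1.47 in LRT plantaris and 0.89 to 1.52 in LRT soleus. Its LRT soleus call was lost in limma-voom (1.06) and with the rat as a correlated block (1.07), and its HRT plantaris call was made with library totals (1.27) and without RIN (1.23). Its muscle difference in LRT CTRL was called without RIN (1.12) and was 0.78 to 1.12 over the fits with such a pair left out. Of values that passed nowhere, some changed sign. DELTA in plantaris of Cdkn1a was -0.01 without RIN and -0.18 to 0.69 with a pair left out. DELTA in soleus was -0.06 to 0.74 for Hdac4 and -0.07 to 0.50 for Gadd45a. The muscle difference of the HI effect of Cdkn1a in LRT was 0.13 in limma-voom, 0.12 with the rat as a correlated block and -0.39 to 0.02 with a pair left out, and that of Gadd45a in HRT was -0.23 to 0.65. For Hdac4 the CTRL line difference ran between -0.10 and 0.02 (plantaris) or -0.17 and 0.09 (soleus) over the same fits. With a pair left out, the HI effect of Cdkn1a was 0.60 to 1.24 in HRT plantaris and 0.08 to 0.60 in HRT soleus, its DELTA in soleus 0.51 to 1.37 and its line difference in soleus CTRL -0.85 to -0.31. For Hdac4 the muscle difference of the HI effect was 0.19 to 0.53 in LRT and 0.09 to 0.48 in HRT, and that in HRT CTRL 0.21 to 0.60. For Gadd45a the line difference in soleus CTRL was 0.10 to 0.25.

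Among coefficients, Hdac4 and Gadd45a in soleus CTRL went to 0.01 and Gadd45a and Cdkn1a below the plantaris gap to -0.04 with library totals. Hdac4 between muscles had r of -0.14 in the lower and 0.13 in the upper cluster of plantaris HI, and went to 0.53 and 0.89 with RIN removed, while rho in the upper was -0.09. Cdkn1a between muscles was 0.87 with RIN removed in HI and -0.15 as rho in CTRL. With the replicate number as a block no call of a member changed, and Hdac4 in LRT plantaris was 2.70. Same-numbered HI and CTRL libraries had a mean correlation of -0.018, with 0 of 24 over 0.1, so the number pairs nothing there. With library totals the median HI effect over all genes was 0.25, 0.17, 0.15 and 0.07 in LRT plantaris, HRT plantaris, LRT soleus and HRT soleus, against at most 0.02 with TMM, and 3019 rather than 1859 genes were called in HRT plantaris. With each muscle alone the calls went from 2364 to 1493 in LRT soleus, from 2744 to 1207 in HRT soleus and from 5 to 0 for DELTA in soleus, which was 31 in DESeq2, 9 without RIN, 11 where each library needed 10 counts or more, and 3 with library totals. The muscle difference of the HI effect had 370 calls in LRT (165 with any count, 730 in DESeq2, 1185 with the rat as a correlated block) and 16 in HRT (1, 78 and 150 likewise, 64 without RIN and 28 with the replicate block). The line difference in CTRL had 89 calls in plantaris (56 with at least 10 counts, 160 in DESeq2) and 246 in soleus (99 with the muscle alone, 434 in DESeq2, 558 with library totals). Muscle differences could not be fitted with each muscle alone. The lowest count of a member in a library was 120, and the part of depth was not tested.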
